A study of Mus musculus with 18 samples.

Results

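The effect of a Pth1r knockout was examined in bone marrow stromal cells of mice at postnatal day 21, with 3 control and 3 knockout libraries out of the 18 RNA-seq libraries of the series. The cells were osterix-derived, that is, descended from cells that had used the osterix gene of the bone-forming lineage, and they had been sorted from marrow as GFP-negative and positive for the label Tm. Control mice are labelled wild type, and knockout mice carry a conditional deletion of Pth1r in osteoprogenitors. The Cre driver, the deleted exons and the meaning of Tm are not stated in the labels, nor is the number of animals behind a library. The members were the libraries whose titles name marrow, GFP-negative and Tm-positive cells, and all genes were considered. In the same genotypes, GFP-negative and Tm-positive cells sorted from bone (3 control and 3 knockout libraries) served to show where marrow differed. No library of this subset from another age or another allele was analysed here.

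Pth1r encodes the receptor shared by parathyroid hormone and parathyroid hormone-related protein. It couples mainly to the G protein Gs, which raises cAMP and activates protein kinase A. That kinase restrains the salt-inducible kinases, frees the CRTC coactivators and acts on CREB. Marrow stromal cells of the reticular type surround sinusoids, make CXCL12 and stem cell factor for blood stem cells, carry the leptin receptor, and can give rise to both osteoblasts and marrow fat cells.

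The 6 libraries held between 16443595 and 24524300 counts, and between 19329 and 20237 genes had a count. Levels are in CPM, counts per 1000000 of the TMM-adjusted library size, and libraries are numbered as in the labels. A gene with a count of 0 in a library could be present at up to 3 counts, at most 0.143 CPM in any of the 6. Fold changes are log2 values of knockout over control ± SE, from 3 against 3 libraries. The edgeR quasi-likelihood test takes its spread from all 18 libraries of the series, and p-values are adjusted over all genes tested. The 10 most abundant genes took 27.8, 33.8 and 31.5% of counts in control libraries 1 to 3 and 23.4, 21.6 and 19.9% in knockout libraries 1 to 3. Genes of reticular stroma were abundant in every library. Cxcl12 was at 26370.3, 19378 and 19444 CPM in the control libraries and 31559, 29659.6 and 36708 CPM in the knockout libraries, and Lepr at 1744, 1346 and 1120.2 CPM in the control libraries and 3208, 3640.1 and 3585 CPM in the knockout libraries. Ptprc, the pan-leukocyte antigen, averaged 0.201 CPM in controls and 0.0684 CPM in knockouts. Y-linked genes summed to 91.3 CPM or more in libraries 1 and 2 of both groups and to at most 3.00 CPM in library 3 of both, so this difference between libraries was balanced over the genotypes.

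Knockout library 2 and control library 3 stood apart from the rest of their groups. Knockout library 2 was high in megakaryocyte genes: 10 megakaryocyte and platelet markers summed to 353 CPM there, against 11.1 to 19.5 CPM in the other 5 libraries. Itga2b, the platelet integrin alpha chain, was at 0.711, 0.684 and 0.667 CPM in the control libraries and 1.26, 81.3 and 1.502 CPM in the knockout libraries. Control library 3 was high in smooth muscle type genes. Acta2, smooth muscle actin, was at 375, 448 and 1675 CPM in the control libraries and 39.1, 58.2 and 63.2 CPM in the knockout libraries. Both libraries stayed in the fit, and counts without 1 or the other stand beside some of the lists they touch.

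**Figure D1:**
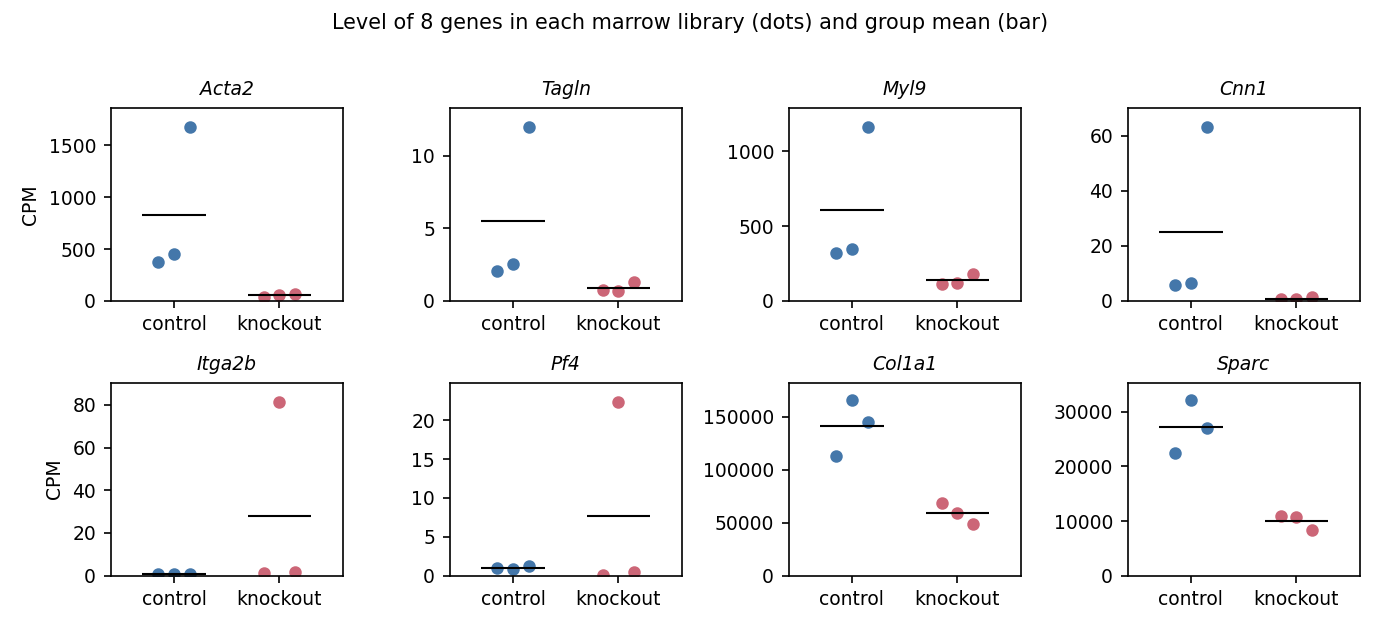
Level in CPM (vertical axis, linear) of 8 genes in each of the 3 control and 3 knockout marrow libraries, with dots for libraries 1 to 3 from left to right and bars for group means. Control library 3 lies above the other controls in Acta2, Tagln, Myl9 and Cnn1, and knockout library 2 carries almost all of the Itga2b and Pf4 signal, while Col1a1 and Sparc separate the groups without such a library.

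Markers of other cell types moved with genotype in some lists and not in others. In controls and knockouts respectively, summed levels were 8.12 to 21.7 and 10.6 to 15.2 CPM for 11 macrophage markers, with Itgam at 0 in all 6 libraries. The 10 neutrophil markers summed to 7.05 to 36.5 and 2.31 to 13.9 CPM, with Cxcr2 at 0 throughout. Sums were 2.71 to 5.38 and 0.708 to 1.92 CPM for 10 B cell markers, with Igll1 and Pax5 at 0, and 1.16 to 2.44 and 0.0322 to 0.188 CPM for 9 T and NK cell markers, with Cd8a at 0. Erythroid markers (10) reached 119 to 164 and 75.0 to 104 CPM, and endothelial markers (11) 99.6 to 127 and 69.8 to 92.6 CPM. The 8 osteoclast markers, with Dcstamp at 0, summed to 538 to 727 CPM in controls and 201 to 505 CPM in knockouts. The 14 chondrocyte markers summed to 2603 to 3730 and 3340 to 4095 CPM. Schwann cell markers (8, Foxd3 at 0) were at 140 to 144 and 198 to 234 CPM, skeletal muscle markers (10, with Myh4, Pax7 and Myod1 at 0) at 3.08 to 13.8 and 1.88 to 2.39 CPM, and brown fat markers (8) at 4.02 to 7.76 and 10.7 to 21.3 CPM. The Schwann cell and brown fat sums were thus higher in all knockout libraries, but each through few genes. Of 6 Schwann cell markers tested only Pmp22 rose and 3 fell, with a median of -1.67. Of 5 brown fat markers tested Prdm16 and Ppargc1a rose and Cox7a1 fell, with a median of -0.14. The B cell, T and NK cell, erythroid, endothelial, osteoclast and skeletal muscle sums were lower in all knockout libraries. Few of these markers were called. Of those tested, 1 of 4 (B cell), 1 of 1 (T and NK cell), 2 of 10 (endothelial) and 2 of 4 (osteoclast) fell. No marker of these 4 lists rose, but the endothelial median was 0.04. Of 10 erythroid markers 1 fell and 1 rose, and of 5 skeletal muscle markers none was called. The part of all these cell types in the results below was not tested.

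Fold changes followed gene length. Ranked by merged exon length and by fold change, genes gave a Spearman correlation of 0.37 across 15516 genes, which are not independent replicates. The tenth of genes with the shortest exons (median 853.5 bases) had a median of -0.50, and the tenth with the longest (12002 bases) a median of 0.66. When each library was set against the mean of its subset, log2 levels fell by 0.106 to 0.137 per doubling of length in the 3 controls and rose by 0.109 to 0.133 per doubling in the 3 knockouts. A smooth trend over length was therefore also removed from each library, which left a correlation of 0.02. Values after this step are called length-corrected. Whether the trend is technical cannot be told apart from genotype in this design.

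**Figure D2:**
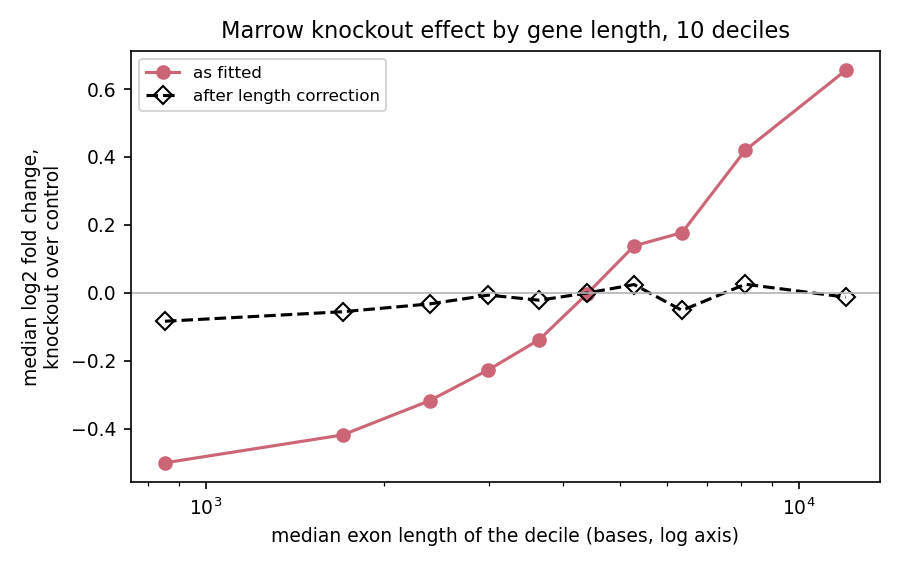
Median log2 fold change of knockout over control in marrow (vertical axis) for 10 equal groups of genes ordered by the length of merged exons (horizontal axis, bases, log scale), as fitted and after length correction. The fitted medians climb from -0.50 to 0.66, and the corrected medians stay between -0.08 and 0.03.

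Of 54446 gene IDs in the files, 15516 passed the filter on low counts. In knockout marrow cells 3581 of them (23.1%) were higher and 3844 (24.8%) lower, so 47.9% of genes passed the test. At least 2-fold changes made up 11.8% (higher) and 8.38% (lower). After length correction 19.9% were higher and 22.5% lower, and 16.7% and 17.9% held the same call before and after. With library totals alone as the scale the split turned to 4202 higher and 2850 lower, that is 59.6% of calls higher against 48.2%, and the median gene moved from -0.04 to 0.09 on the log2 scale. All 3 knockout libraries lay above all 3 controls in 26.1% of genes and below them in 28.6%. Each list count and each lack of overlap below is to be read against these shares. Some genes stand in more than 1 list. Listed genes that did not pass the filter, and are in no count, were Pth2r, Gpihbp1, Cpt1b, Lep, Csf3, Thpo, Tnfsf10, Fgf23, Tat, Igfbp1, Rspo1, Rnf43, Dll4, Cfi and C7. In sorted bulk RNA, fewer cells of a type and less RNA per cell cannot be told apart.

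**Figure D3:**
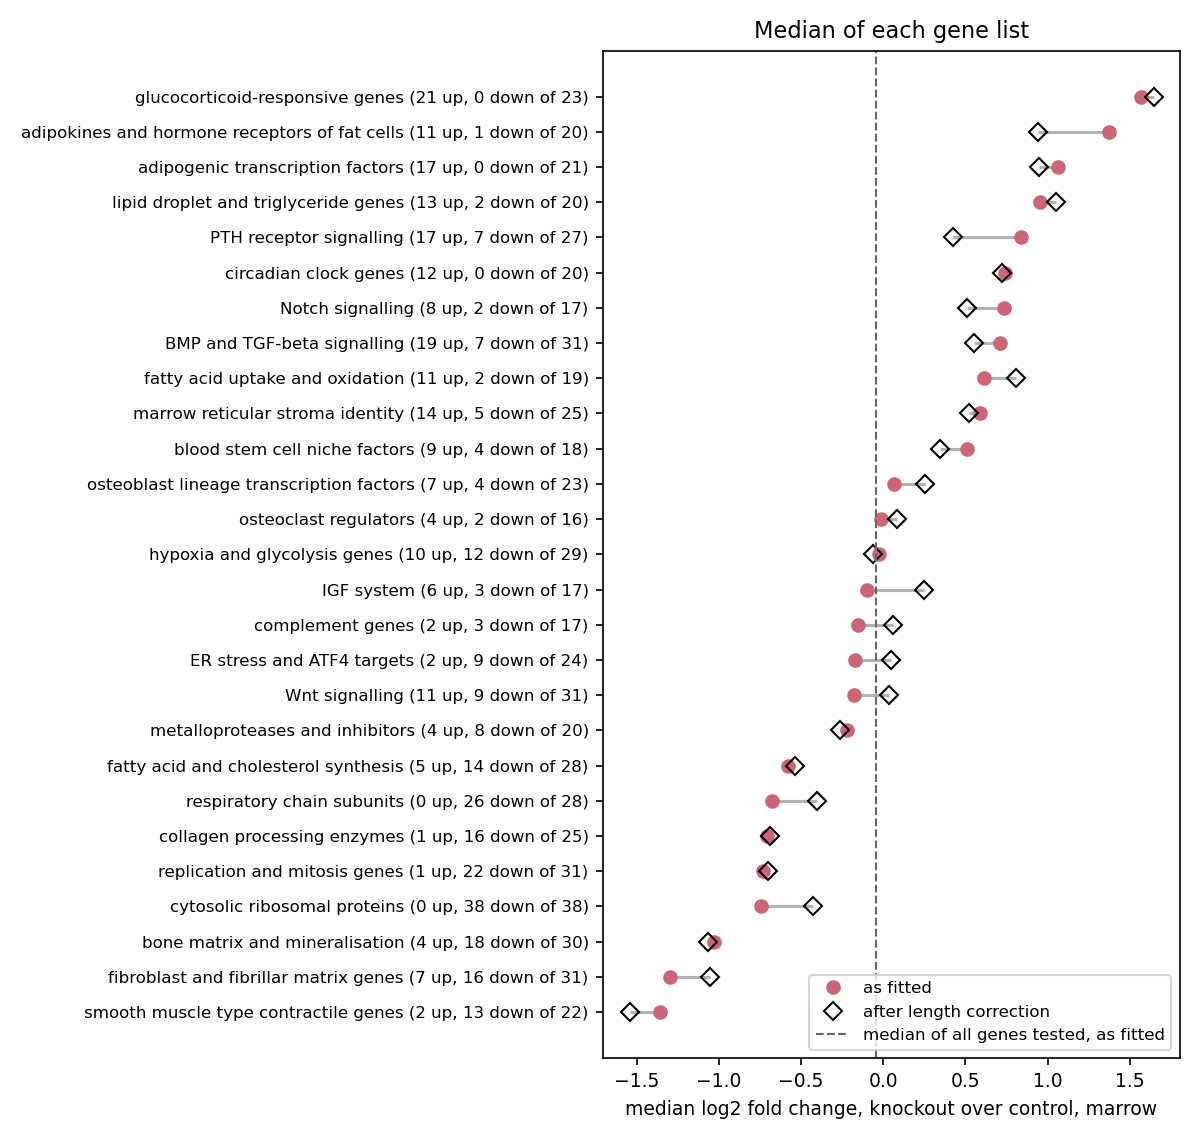
Median log2 fold change in marrow (horizontal axis) of 27 gene lists, with the number of members higher and lower at an adjusted p under 0.05 and the number tested, as fitted (circles) and after length correction (diamonds). As fitted, the glucocorticoid-responsive, fat-cell hormone and adipogenic lists lie farthest to the right, and after length correction the lipid droplet list lies right of the last 2. The contractile, fibroblast and bone matrix lists lie farthest to the left in both, and the dashed line marks the median of all genes.

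Pth1r itself fell but was still counted in all knockout libraries. Its levels (ENSMUSG00000032492.14, on the minus strand of mm10 chromosome 9 from 110722085 to 110747145) were 541, 580.3 and 552 CPM in the control libraries and 372, 337 and 318 CPM in the knockout libraries. The groups did not overlap, and the fall was 1.63-fold (-0.70 ± 0.13, adjusted p = 0.000195), or -0.48 ± 0.13 after length correction (adjusted p = 0.00524). Counts cover all exons, so transcripts without the deleted part are counted too.

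Downstream of the receptor, kinases and coactivators that cAMP signalling normally holds in check or engages were mostly higher. Of 27 tested genes of PTH receptor signalling, 17 were higher, 7 lower and 3 did not pass. Of these, 14 and 6 held after length correction, and the list median moved from 0.84 to 0.42. With library totals alone, with the 6 marrow libraries alone or without control library 3, only 4 were lower. The salt-inducible kinase Sik2, which protein kinase A inhibits, was at 4.38, 5.47 and 5.71 CPM in the control libraries and 27.5, 26.6 and 35.0 CPM in the knockout libraries. All knockout libraries lay above all controls (2.52 ± 0.22, adjusted p = 5.41e-08; length-corrected 2.01 ± 0.22). Sik1, whose transcription CREB can drive, showed the same separation at 5.01, 6.71 and 11.4 CPM in the control libraries and 45.7, 64.4 and 81.5 CPM in the knockout libraries (3.07 ± 0.29, adjusted p = 2.65e-07). The coactivator Crtc2 rose from 28.9 ± 0.343 to 54.6 ± 5.68 CPM (0.92 ± 0.13, adjusted p = 1.38e-05). Among signalling components, the G protein subunit Gnaq (1.26 ± 0.14), adenylyl cyclase Adcy6 (2.09 ± 0.27) and beta-arrestin Arrb1 (2.19 ± 0.27) also rose, all with adjusted p of at most 4.76e-06. Gnas, the Gs alpha subunit, was at 42.3, 52.6 and 49.3 CPM in the control libraries and 37.2, 34.3 and 46.0 CPM in the knockout libraries. Its libraries overlapped and it did not pass the test as fitted (-0.30 ± 0.13, adjusted p = 0.0607), but it passed as lower after length correction (-0.89 ± 0.13, adjusted p = 3.09e-05). It also passed as lower without control library 1 or knockout library 3 (-0.38 and -0.42, adjusted p = 0.0306 and 0.0140).

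Transcription factors of the fat-cell programme were higher in knockout marrow cells, and none of the list was lower. Of 21 tested, 17 rose and 16 also did so after length correction, with a median of 1.06 (0.95 corrected) against -0.04 over all genes. Pparg, the main regulator of fat-cell differentiation, was at 152, 92.8 and 107 CPM in the control libraries and 239.7, 236 and 236 CPM in the knockout libraries. Cebpa, its partner in fat-cell differentiation, was at 169, 117 and 128 CPM in the control libraries and 336, 288 and 408 CPM in the knockout libraries. Neither gene's groups overlapped (1.02 ± 0.19, adjusted p = 0.000281 for Pparg, 1.32 ± 0.17, adjusted p = 4.31e-06 for Cebpa). Cebpb and Cebpd, which act early in the same programme, rose from 161 ± 34.1 to 436 ± 47.5 CPM (1.44 ± 0.18, adjusted p = 3.86e-06) and from 283 ± 46.8 to 763 ± 66.2 CPM (1.43 ± 0.16, adjusted p = 7.37e-07). Ebf1, a factor of adipogenic and reticular stroma, rose from 166 ± 13.0 to 346 ± 51.5 CPM (1.06 ± 0.12, adjusted p = 7.16e-07), and its change shrank to 0.54 ± 0.12 after length correction. Zfp423, which marks preadipocytes, was at 24.5, 23.3 and 26.9 CPM in the control libraries and 80.6, 67.6 and 78.9 CPM in the knockout libraries, and Zfp521, described as its antagonist, at 12.7, 7.82 and 8.24 CPM in the control libraries and 32.2, 31.4 and 28.7 CPM in the knockout libraries. Both separated the groups, by 1.61 ± 0.15 and 1.67 ± 0.17. Zfp467, a zinc finger factor reported downstream of parathyroid hormone, was at 14.3, 12.4 and 14.4 CPM in the control libraries and 15.4, 19.2 and 24.4 CPM in the knockout libraries (0.51 ± 0.16, adjusted p = 0.0140). Without control library 2 or knockout library 3 that call ended (adjusted p = 0.0619 and 0.0971).

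Lipid droplet coats and enzymes of triglyceride storage rose with them. Of 20 tested genes, 13 were higher and 2 lower, Plin3 (-0.57 ± 0.10) and Hilpda (-0.50 ± 0.14), named after their values were seen. The 13 rises held after length correction, as did the fall of Plin3 but not that of Hilpda, and the median was 0.95. Plin1, the coat protein of large droplets, was at 4.60, 6.24 and 5.33 CPM in the control libraries and 88.1, 54.9 and 65.5 CPM in the knockout libraries. Its lowest knockout library was still several times its highest control (3.69 ± 0.21, adjusted p = 4.32e-10). Dgat2, the last step of triglyceride synthesis, was at 20.8, 8.80 and 13.3 CPM in the control libraries and 68.7, 48.3 and 68.9 CPM in the knockout libraries (2.11 ± 0.23, adjusted p = 7.05e-07). Lipe, hormone-sensitive lipase, which breaks triglyceride down, was at 4.12, 8.38 and 5.86 CPM in the control libraries and 38.0, 42.1 and 27.9 CPM in the knockout libraries (2.57 ± 0.25, adjusted p = 1.68e-07). Fitm2, which helps droplets bud, rose from 16.3 ± 2.103 to 52.8 ± 3.23 CPM (1.70 ± 0.14, adjusted p = 3.39e-08), and Lpin1, a phosphatidate phosphatase, from 13.7 ± 3.85 to 35.9 ± 2.45 CPM (1.37 ± 0.18, adjusted p = 4.02e-06). Plin2, the coat of small droplets, rose by 0.87 ± 0.10. Cidec, which fuses droplets, was at 1.65, 9.32 and 4.90 CPM in the control libraries and 10.6, 32.0 and 15.5 CPM in the knockout libraries (1.89 ± 0.41, adjusted p = 0.000576), but it did not pass with DESeq2 (adjusted p = 0.135) or with the 6 marrow libraries alone (0.0698). Pnpla2, adipose triglyceride lipase, was at 31.5, 48.7 and 153 CPM in the control libraries and 109.6, 142 and 120.1 CPM in the knockout libraries and did not pass (0.68 ± 0.40, adjusted p = 0.183). Without control library 3, its highest control, it was 1.63 (adjusted p = 2.99e-06).

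Genes of fatty acid uptake rose, whereas the named enzymes of mitochondrial oxidation moved both ways. Of 19 tested, 11 were higher, 2 lower and 6 did not pass, and after length correction 13 were higher and 3 lower. Of the calls as fitted, 11 and 1 held after length correction. Without control library 3 or without knockout library 2, 9 were higher and 1 lower. Cd36, a fatty acid transporter, was at 12.5, 12.1 and 13.7 CPM in the control libraries and 193, 114 and 172 CPM in the knockout libraries. Acsl1, which links fatty acids to coenzyme A, was at 27.3, 20.8 and 23.7 CPM in the control libraries and 246, 243 and 184 CPM in the knockout libraries. Both were separated from the controls by several fold (3.65 ± 0.38, adjusted p = 2.06e-06 and 3.23 ± 0.19, adjusted p = 9.98e-10). Lpl, lipoprotein lipase, was at 2884, 2431 and 2917 CPM in the control libraries and 8266, 5646 and 6231 CPM in the knockout libraries (1.29 ± 0.15, adjusted p = 1.68e-06), and its change was 0.73 ± 0.16 after length correction. Its secreted inhibitor Angptl4 was at 375, 395 and 299 CPM in the control libraries and 1261, 1578 and 1075 CPM in the knockout libraries (1.87 ± 0.16, adjusted p = 4.09e-08). Fabp4, a fatty acid carrier of fat cells, was at 50.4, 75.8 and 134 CPM in the control libraries and 369, 347 and 359.6 CPM in the knockout libraries (2.05 ± 0.40, adjusted p = 0.000818). In oxidation, Cpt1a, which admits fatty acids to mitochondria, rose from 29.0 ± 6.98 to 52.8 ± 7.24 CPM (0.87 ± 0.19, adjusted p = 0.000906). Acadvl, the first enzyme of mitochondrial long-chain oxidation, fell by a small step (-0.30 ± 0.09, adjusted p = 0.00918), which was not called after length correction (-0.05 ± 0.09) or without knockout library 2 (adjusted p = 0.0507). The other gene called lower, Hadhb, named after its values were seen, changed by -0.27 ± 0.08, a call lost without control library 3 or knockout library 1 (adjusted p = 0.0628 and 0.0589).

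Genes of fatty acid and cholesterol synthesis moved both ways. The list of 28 tested genes had 5 higher and 14 lower members, and every one of these calls held after length correction. The 5 higher ones make or desaturate fatty acids: Fasn, Scd1, Acaca, Acacb and Acly, the last 3 named after their values were seen. Scd1, a stearoyl-CoA desaturase, was at 41.6, 109 and 76.3 CPM in the control libraries and 586, 615 and 345 CPM in the knockout libraries (2.77 ± 0.27, adjusted p = 8.01e-07). Fasn, fatty acid synthase, was at 15.9, 16.1 and 15.7 CPM in the control libraries and 40.5, 30.6 and 43.9 CPM in the knockout libraries (1.27 ± 0.16, adjusted p = 3.48e-06; length-corrected 0.68 ± 0.16). Acacb, an acetyl-CoA carboxylase, was at 0.187, 0.470 and 0.0476 CPM in the control libraries and 5.31, 3.17 and 4.79 CPM in the knockout libraries (4.18 ± 0.45). Several enzymes of the sterol pathway fell. Sqle, squalene epoxidase, was at 27.2, 25.8 and 36.8 CPM in the control libraries and 9.95, 9.93 and 11.1 CPM in the knockout libraries, with no overlap (-1.54 ± 0.12, adjusted p = 2.38e-08). Fdft1, squalene synthase, was at 17.5, 19.5 and 15.6 CPM in the control libraries and 8.69, 6.87 and 6.48 CPM in the knockout libraries (-1.24 ± 0.13, adjusted p = 2.72e-07). Fdps, which makes farnesyl diphosphate, was low throughout, at 3.93, 4.53 and 3.86 CPM in the control libraries and 0.644, 1.19 and 1.08 CPM in the knockout libraries (-2.103 ± 0.22, adjusted p = 4.84e-07). Fads2, a desaturase of polyunsaturated fatty acids, fell from 39.2 ± 4.92 to 14.9 ± 1.52 CPM (-1.39 ± 0.13, adjusted p = 1.15e-07). Sc5d, a sterol desaturase that is not in the list, rose from 10.1 ± 1.05 to 19.0 ± 1.001 CPM (0.91 ± 0.11, adjusted p = 2.22e-06).

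Hormone receptors of fat cells and their insulin signalling components were higher, while the adipokine Adipoq did not pass as fitted. Of 20 tested, 11 rose and 1 fell, Adipor1 (-0.44 ± 0.07, named after its values were seen), and all 12 held after length correction. Irs2, an adaptor of the insulin receptor, was at 79.8, 84.0 and 113 CPM in the control libraries and 348, 456 and 511 CPM in the knockout libraries (2.25 ± 0.16, adjusted p = 9.46e-09). Insr, the insulin receptor, was at 2.43, 2.78 and 2.24 CPM in the control libraries and 5.79, 8.29 and 9.15 CPM in the knockout libraries (1.62 ± 0.23, adjusted p = 1.11e-05). Both genes had all knockout libraries above all controls. Klb, the co-receptor for FGF21, rose from a level near the floor, from 0.494 ± 0.0554 to 11.6 ± 4.19 CPM (4.55 ± 0.44, adjusted p = 9.59e-08). Ghr, the growth hormone receptor, rose from 251 ± 48.8 to 677 ± 80.5 CPM (1.43 ± 0.13, adjusted p = 1.01e-07). Adiponectin, Adipoq, was at 2251, 1631 and 1348 CPM in the control libraries and 1945, 2218 and 2085 CPM in the knockout libraries, overlapped and did not pass as fitted (0.26 ± 0.19, adjusted p = 0.284), but passed after length correction (0.65 ± 0.19, adjusted p = 0.00931) and without control library 1 (0.48, adjusted p = 0.0407).

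**Figure D4:**
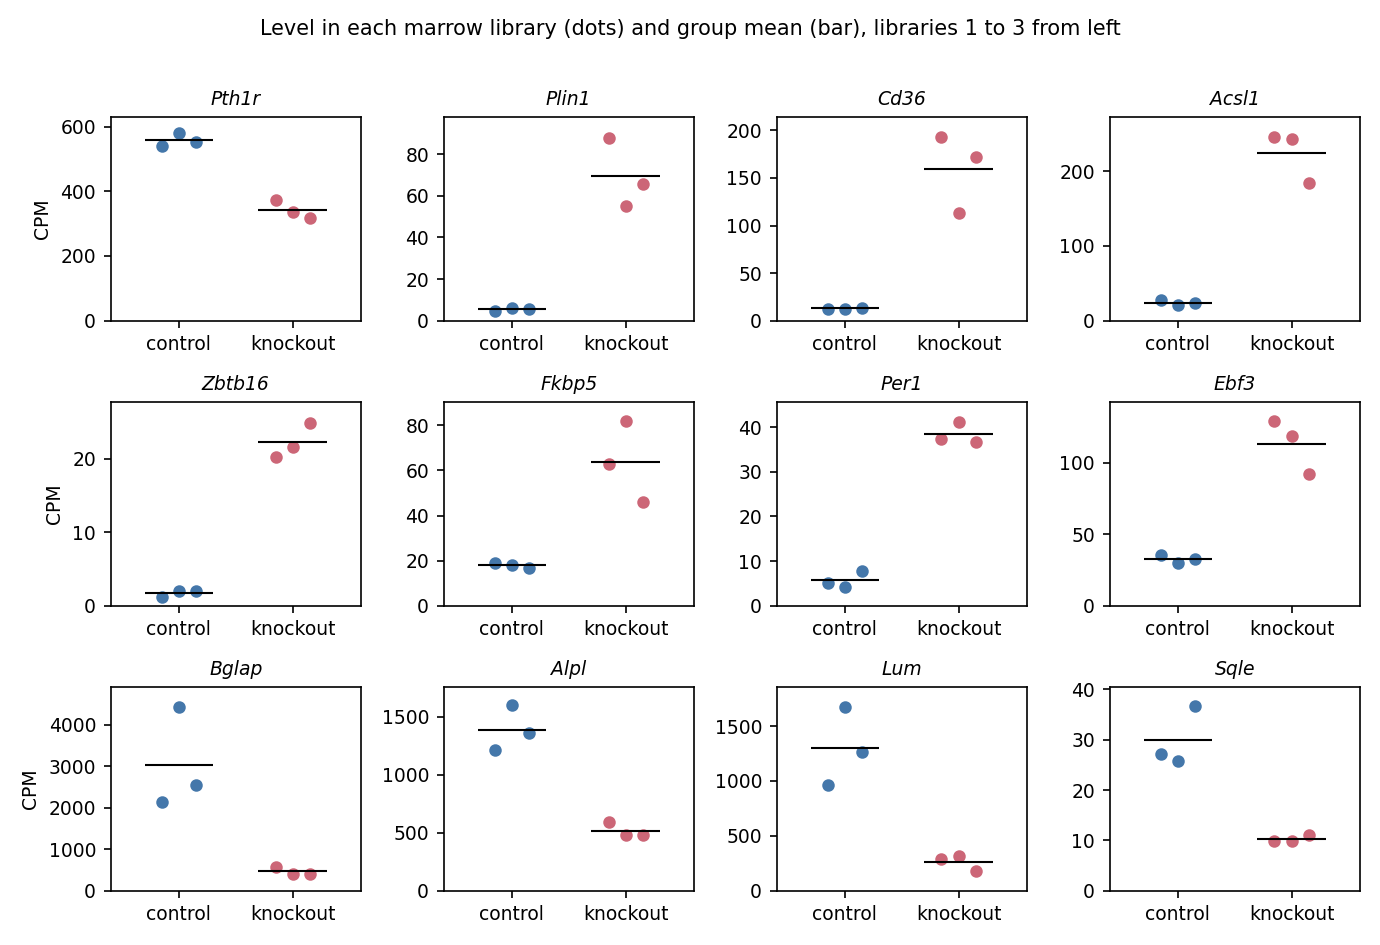
Level in CPM (vertical axes, linear from 0) of 12 genes in each of the 3 control and 3 knockout marrow libraries, with dots for libraries 1 to 3 from left to right and bars for group means. In all 12 panels the groups are apart: Plin1, Cd36, Acsl1, Zbtb16, Fkbp5, Per1 and Ebf3 are higher in knockouts, and Pth1r, Bglap, Alpl, Lum and Sqle are lower.

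Genes that glucocorticoid hormone is known to induce formed the list with the highest median. Of 23 tested, 21 were higher, none was lower, and all 21 held after length correction, with a median of 1.57 (1.65 corrected). Glucocorticoids act through the receptor Nr3c1, which enters the nucleus on binding hormone and can attach to a palindromic element. Nr3c1 was at 67.5, 63.9 and 64.9 CPM in the control libraries and 106, 113 and 116 CPM in the knockout libraries (0.77 ± 0.09, adjusted p = 2.10e-06). Zbtb16, a zinc finger factor, was at 1.197, 1.97 and 1.95 CPM in the control libraries and 20.2, 21.6 and 24.9 CPM in the knockout libraries (3.72 ± 0.37, adjusted p = 2.83e-07). Fkbp5, a chaperone that dampens the receptor, was at 19.0, 18.2 and 16.7 CPM in the control libraries and 62.9, 81.9 and 46.1 CPM in the knockout libraries (1.83 ± 0.38, adjusted p = 0.00101). The 3 genes separated the groups, with Zbtb16 the farthest apart. Tsc22d3, a leucine zipper protein with anti-inflammatory action, was at 218, 197 and 224 CPM in the control libraries and 661, 828 and 546 CPM in the knockout libraries (1.67 ± 0.18, adjusted p = 1.03e-06), and Glul, glutamine synthetase, at 28.6, 27.6 and 30.0 CPM in the control libraries and 143, 169.8 and 93.3 CPM in the knockout libraries (2.24 ± 0.17, adjusted p = 1.35e-08). Hif3a, a hypoxia-inducible factor, rose from 0.268 ± 0.159 to 8.96 ± 2.20 CPM (5.02 ± 0.42, adjusted p = 2.17e-07), and the sulfotransferase Sult1a1 from 28.7 ± 4.58 to 103 ± 15.4 CPM (1.84 ± 0.19, adjusted p = 1.86e-07). The 2 members that did not pass were Lcn2 and Cry1. Without knockout library 2 the count was 19 higher and none lower.

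Promoters of members of this list were read from RefSeq sequence (build GRCm38.p6, the assembly of mm10), since the list is defined by a receptor with a known element. The glucocorticoid response element was searched as GNACANNNTGTNC on both strands in the 250 bases before each gene's start. It was found in 3 of 21 members with a promoter (14.29%) and in 119 of 27025 genes (0.44%). The 3 are shown 5′ to 3′, with the matched bases in capitals. A match is a description of letters and not evidence of binding, and the genes were chosen after their values were seen.
Sgk1 (chr10:21993640-21993889, plus strand, match 188 bases before the start): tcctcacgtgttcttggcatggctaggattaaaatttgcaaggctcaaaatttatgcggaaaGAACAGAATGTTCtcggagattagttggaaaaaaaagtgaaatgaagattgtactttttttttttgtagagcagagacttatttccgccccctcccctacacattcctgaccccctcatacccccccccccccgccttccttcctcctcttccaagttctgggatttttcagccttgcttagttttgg
Mt1 (chr8:94178839-94179088, plus strand, match 94 bases before the start): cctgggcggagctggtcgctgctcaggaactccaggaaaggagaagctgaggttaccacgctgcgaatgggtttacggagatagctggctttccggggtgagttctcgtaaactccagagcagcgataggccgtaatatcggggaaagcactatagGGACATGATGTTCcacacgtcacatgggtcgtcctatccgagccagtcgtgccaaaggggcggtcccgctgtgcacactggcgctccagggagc
Map3k6 (chr4:133240568-133240817, plus strand, match 181 bases before the start): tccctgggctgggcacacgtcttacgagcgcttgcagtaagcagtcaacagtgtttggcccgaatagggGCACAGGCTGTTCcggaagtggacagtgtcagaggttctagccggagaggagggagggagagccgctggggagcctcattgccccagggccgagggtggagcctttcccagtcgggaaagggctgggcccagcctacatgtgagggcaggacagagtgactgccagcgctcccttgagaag

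Sgk1, a serum- and glucocorticoid-induced kinase, was at 177, 190.0 and 220.2 CPM in the control libraries and 404, 448 and 243 CPM in the knockout libraries (0.90 ± 0.21, adjusted p = 0.00189). Mt1, a metal-binding protein, was at 16.6, 23.8 and 25.4 CPM in the control libraries and 63.4, 88.4 and 76.7 CPM in the knockout libraries (1.80 ± 0.21, adjusted p = 1.59e-06). Map3k6, a stress kinase, was at 11.4, 10.4 and 13.5 CPM in the control libraries and 15.7, 17.2 and 21.8 CPM in the knockout libraries (0.63 ± 0.23, adjusted p = 0.0285). Knockout libraries lay above the controls in each, and the call of Map3k6 ended without control library 1 or 2 or knockout library 3 (adjusted p = 0.0722 to 0.116). The cAMP response element TGACGTCA, the site for CREB, was found in 2 other members (9.52%) against 478 of 27025 genes (1.77%), and in 1 of 22 PTH signalling genes with a promoter (4.55%). These 2 are shown because the element belongs to the pathway of the deleted receptor.
Dusp1 (chr17:26508473-26508722, minus strand, match 143 bases before the start): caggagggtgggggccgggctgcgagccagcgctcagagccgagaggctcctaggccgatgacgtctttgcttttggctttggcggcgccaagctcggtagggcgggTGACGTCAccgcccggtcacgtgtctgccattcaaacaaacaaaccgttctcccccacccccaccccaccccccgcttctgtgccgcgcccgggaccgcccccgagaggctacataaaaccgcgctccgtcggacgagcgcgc
Errfi1 (chr4:150854820-150855069, plus strand, match 51 bases before the start): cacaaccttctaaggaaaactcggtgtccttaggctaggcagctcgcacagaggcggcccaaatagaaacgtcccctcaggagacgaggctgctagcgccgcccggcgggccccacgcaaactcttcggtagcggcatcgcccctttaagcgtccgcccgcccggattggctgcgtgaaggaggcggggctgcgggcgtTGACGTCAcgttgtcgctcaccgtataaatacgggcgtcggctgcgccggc

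Dusp1, a phosphatase of MAP kinases, was at 1550.0, 1964 and 1631 CPM in the control libraries and 3032, 4159 and 2522 CPM in the knockout libraries (0.92 ± 0.23, adjusted p = 0.00359). Errfi1, an inhibitor of the EGF receptor, was at 505, 404 and 489.6 CPM in the control libraries and 1145, 1987 and 1092 CPM in the knockout libraries (1.59 ± 0.18, adjusted p = 1.34e-06). Both were higher in knockouts, and a part of CREB or of the receptor in these values was not tested.

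Clock genes were higher or did not pass, and none was lower. Of 20 tested, 12 rose, 11 of them also after length correction. The repressors Per1 and Per2 were at 5.01, 4.23 and 7.76 CPM in the control libraries and 37.3, 41.1 and 36.8 CPM in the knockout libraries, and at 5.72, 4.19 and 3.62 CPM in the control libraries and 23.9, 26.7 and 24.8 CPM in the knockout libraries. Neither overlapped (2.77 ± 0.17, adjusted p = 1.73e-09 and 2.46 ± 0.22, adjusted p = 7.66e-08). Cry2, a partner of the Per proteins, rose from 19.7 ± 1.41 to 55.0 ± 5.51 CPM (1.48 ± 0.12, adjusted p = 3.07e-08), and Clock, the activator that they inhibit, from 6.82 ± 2.28 to 22.5 ± 5.31 CPM (1.74 ± 0.29, adjusted p = 6.77e-05). Nr1d1, a repressor of Arntl, rose from 76.9 ± 10.2 to 202 ± 61.6 CPM (1.39 ± 0.24, adjusted p = 0.000193). Arntl, the partner of Clock, and Dbp, a clock output, did not pass (0.23 ± 0.34 and -0.30 ± 0.32, adjusted p = 0.599 and 0.465). No source used here gives the hour of day at which tissue was taken, and its part in these values was not tested.

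Genes that define reticular stroma were mostly higher. Of 25 tested, 14 rose and 5 fell, and 12 and 3 held after length correction, with a median of 0.59. With library totals alone, with no filter on low counts or without knockout library 1, only 2 were lower. Ebf3, needed to keep the niche free of bone, was at 35.1, 29.9 and 32.6 CPM in the control libraries and 129, 119 and 91.9 CPM in the knockout libraries (1.80 ± 0.13, adjusted p = 9.82e-09). Foxc1, a factor of the same cells, was at 450.3, 356 and 329 CPM in the control libraries and 725, 799.9 and 871 CPM in the knockout libraries (1.08 ± 0.13, adjusted p = 1.37e-06). The leptin receptor gene, given above, rose by 1.31 ± 0.15. Pdgfra rose from 169 ± 14.96 to 424 ± 56.5 CPM (1.32 ± 0.12, adjusted p = 9.32e-08) and Pdgfrb from 447 ± 39.5 to 1363 ± 169.6 CPM (1.61 ± 0.15, adjusted p = 9.09e-08), the receptors for platelet-derived growth factors. Apoe, a lipid carrier, rose from 1089.6 ± 197 to 2929 ± 119 CPM (1.43 ± 0.11, adjusted p = 2.07e-08), and Cbln1, a secreted cerebellin, from 59.0 ± 7.90 to 117 ± 2.68 CPM (0.99 ± 0.11, adjusted p = 4.89e-07). Ngfr, the low-affinity nerve growth factor receptor, was near the floor in knockouts, at 2.21, 3.50 and 2.38 CPM in the control libraries and 0.322, 0.560 and 0.376 CPM in the knockout libraries (-2.67 ± 0.36, adjusted p = 7.45e-06).

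Factors for blood stem cells followed in part. Of 18 tested, 9 rose and 4 fell, and 7 and 2 held after length correction. Kitl, stem cell factor, was at 635, 369.9 and 416 CPM in the control libraries and 897, 1202 and 1577 CPM in the knockout libraries (1.37 ± 0.21, adjusted p = 5.58e-05). Angpt1, which supports quiescence of stem cells, was at 155, 102 and 129 CPM in the control libraries and 424, 476 and 483 CPM in the knockout libraries (1.84 ± 0.14, adjusted p = 1.14e-08). Vcam1, an adhesion molecule, rose from 1797 ± 429 to 5458 ± 819 CPM (1.603 ± 0.17, adjusted p = 5.96e-07). For these 3 the knockouts lay above all controls. Cxcl12 rose by 0.59 ± 0.16 (adjusted p = 0.00648), but only 0.18 ± 0.17 after length correction, which was not called (adjusted p = 0.442). Il7, for B cell precursors, overlapped (0.44 ± 0.17, adjusted p = 0.0457) and lost its call after length correction (adjusted p = 0.202) and without control library 2 or 3 or knockout library 1 or 2 (0.0614 to 0.233). Vegfa, an angiogenic factor, was at 125, 95.1 and 104 CPM in the control libraries and 293, 392 and 319 CPM in the knockout libraries (1.63 ± 0.14, adjusted p = 5.09e-08), and Ptn, pleiotrophin, was lower, at 68.6, 63.8 and 57.7 CPM in the control libraries and 16.8, 18.5 and 19.2 CPM in the knockout libraries (-1.81 ± 0.21, adjusted p = 1.74e-06).

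Osteoclast regulators gave few calls. Of 16 tested, 4 rose and 2 fell, a share below that of all genes. After length correction 3 of the rises and none of the falls held. Csf1 and Il34, the 2 ligands of the macrophage colony-stimulating factor receptor, were both higher, at 518, 356 and 385 CPM in the control libraries and 1199, 1070.3 and 1203 CPM in the knockout libraries (1.46 ± 0.12, adjusted p = 4.14e-08), and at 114, 99.2 and 70.4 CPM in the control libraries and 172, 209.9 and 237 CPM in the knockout libraries (1.12 ± 0.17, adjusted p = 2.11e-05). Tnfsf11, which encodes RANKL, overlapped and did not pass (0.17 ± 0.22, adjusted p = 0.552). Its decoy receptor Tnfrsf11b fell as fitted (-0.80 ± 0.30, adjusted p = 0.0398) but not after length correction (adjusted p = 0.159) or when any library but knockout library 3 was left out (0.0651 to 0.128). Il6 was at 3.33, 9.02 and 21.2 CPM in the control libraries and 4.02, 5.11 and 3.76 CPM in the knockout libraries (-1.34 ± 0.48, adjusted p = 0.0292). Its call ended without control library 3, where it was -0.49 (adjusted p = 0.317). The same call also ended after length correction (adjusted p = 0.0909), with the 6 marrow libraries alone (0.143) and without knockout library 1 or 3 (0.0834 and 0.082). The remaining higher members were Wnt5a (0.77 ± 0.21), a call that did not hold after length correction, and Ephb4 (0.65 ± 0.16).

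Transcription factors of the osteoblast lineage did not move as a block. Of 23 tested, 7 rose and 4 fell, a share near the 47.9% called over all genes. All of these calls held after length correction, and the list median was 0.07. Runx2, the first factor of the lineage, was at 37.4, 48.7 and 40.5 CPM in the control libraries and 45.7, 45.8 and 46.9 CPM in the knockout libraries. Its groups overlapped (0.13 ± 0.12, adjusted p = 0.401), and the sign turned after length correction (-0.33 ± 0.12, adjusted p = 0.0375). Sp7, which encodes osterix, was at 151, 179 and 164 CPM in the control libraries and 132, 88.8 and 112 CPM in the knockout libraries, lower in all knockouts (-0.57 ± 0.13, adjusted p = 0.00133). Dlx3, a homeobox factor of osteoblasts, was at 32.6, 47.6 and 41.2 CPM in the control libraries and 15.03, 12.2 and 14.2 CPM in the knockout libraries (-1.55 ± 0.17, adjusted p = 6.01e-07). Runx1, Fosl2 and Junb, factors shared with other lineages, rose by 1.37 ± 0.18, 1.67 ± 0.23 and 1.34 ± 0.24. Dlx5 and Atf4 did not pass as fitted (-0.03 ± 0.09 and 0.07 ± 0.13) but passed as higher after length correction (0.27 and 0.36, adjusted p = 0.0197 and 0.0324).

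Bone matrix genes fell. Of 30 tested, 18 were lower and 4 higher, 17 and 2 in both fits, with a median of -1.03, or -0.925 with Sost, which was at 0 in all knockout libraries, at the bound that 3 counts allow. Col1a1, the main chain of bone collagen, was at 112721, 166104 and 145014 CPM in the control libraries and 68358, 59449 and 49211 CPM in the knockout libraries. Bglap and Bglap2, near-identical osteocalcin genes whose reads may be shared between them, were at 2126, 4418 and 2546 CPM in the control libraries and 579.7, 409 and 399 CPM in the knockout libraries, and at 582, 1247 and 735 CPM in the control libraries and 164, 110.3 and 111 CPM in the knockout libraries. Control library 2 was the highest of the controls in all 3 genes, and the groups did not overlap (-1.26 ± 0.21, adjusted p = 6.89e-05 for Col1a1, -2.71 ± 0.28, adjusted p = 1.37e-06 for Bglap). Alpl, alkaline phosphatase, which starts mineral, was at 1211, 1597 and 1360.2 CPM in the control libraries and 588, 477 and 481 CPM in the knockout libraries (-1.43 ± 0.11, adjusted p = 1.80e-08). Sparc, a collagen-binding matrix protein, was at 22398, 32143 and 26984 CPM in the control libraries and 10972, 10808 and 8298 CPM in the knockout libraries (-1.44 ± 0.15, adjusted p = 4.34e-07). Ibsp, bone sialoprotein, fell from 3969.7 ± 718 to 1775 ± 675 CPM (-1.16 ± 0.26, adjusted p = 0.00138), Omd, osteomodulin, from 114 ± 22.9 to 41.2 ± 9.46 CPM (-1.46 ± 0.16, adjusted p = 8.16e-07), Cthrc1, a secreted collagen-domain protein, from 215 ± 38.6 to 37.6 ± 13.5 CPM (-2.51 ± 0.21, adjusted p = 5.45e-08), and Ifitm5, a membrane protein of osteoblasts, from 74.6 ± 17.6 to 21.0 ± 5.28 CPM (-1.82 ± 0.19, adjusted p = 6.93e-07). The higher members, named after their values were seen, were Phex (0.60 ± 0.13), Enpp1 (0.69 ± 0.15), Slc20a1 (1.15 ± 0.21) and Col5a1 (0.64 ± 0.17), and those of Enpp1 and Col5a1 did not hold after length correction. With length correction on the 6 marrow libraries alone the calls of Ibsp and Sp7 ended (adjusted p = 0.0644 and 0.0927).

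Enzymes that fold, modify and trim collagen fell as well. Of 25 tested, 16 were lower and 1 higher, all 17 in both fits, with a median of -0.71 (-0.69 corrected). P4ha2 and P4ha1, catalytic subunits of prolyl 4-hydroxylase, were at 171, 201 and 199.5 CPM in the control libraries and 51.9, 54.5 and 61.3 CPM in the knockout libraries (-1.77 ± 0.10, adjusted p = 7.58e-10), and at 229, 285 and 244 CPM in the control libraries and 93.0, 107 and 102 CPM in the knockout libraries (-1.33 ± 0.09, adjusted p = 5.95e-09). Their shared subunit P4hb was at 1653, 1866 and 1664 CPM in the control libraries and 853, 845 and 939.8 CPM in the knockout libraries (-0.97 ± 0.09, adjusted p = 7.63e-08). All subunits were lower in each knockout library. Serpinh1, the collagen chaperone HSP47, was at 5684, 6129.8 and 5304 CPM in the control libraries and 2541, 2093 and 2189.8 CPM in the knockout libraries (-1.33 ± 0.12, adjusted p = 6.44e-08). Pcolce, which enhances removal of the procollagen C-propeptide, fell from 1153 ± 164 to 414 ± 8.12 CPM (-1.48 ± 0.13, adjusted p = 7.31e-08), and Ppib, a prolyl isomerase, from 142 ± 5.56 to 68.4 ± 4.62 CPM (-1.06 ± 0.09, adjusted p = 2.38e-08). Lox, the crosslinking oxidase, did not pass (0.27 ± 0.15, adjusted p = 0.138). The higher member was P3h2 (0.75 ± 0.17), a prolyl 3-hydroxylase whose libraries overlapped, named after its values were seen.

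The fibroblast and fibrillar matrix list was split, with lumican and decorin lower and fibrillin 1 and thrombospondin 1 higher. Of 31 tested, 16 fell and 7 rose, 15 and 5 in both fits. Without control library 3 the counts were 13 lower and 7 higher. Lum and Dcn, leucine-rich proteoglycans that bind collagen fibrils, were at 967, 1673 and 1262 CPM in the control libraries and 290.1, 317 and 182 CPM in the knockout libraries (-2.30 ± 0.20, adjusted p = 6.48e-08), and at 2104, 3466 and 2679.9 CPM in the control libraries and 730.4, 852 and 477 CPM in the knockout libraries (-2.00 ± 0.20, adjusted p = 2.68e-07). Postn, periostin, fell from 190.2 ± 33.8 to 65.7 ± 4.89 CPM (-1.53 ± 0.19, adjusted p = 2.97e-06), and Fbln1, fibulin 1, from 144 ± 23.5 to 46.0 ± 8.24 CPM (-1.65 ± 0.16, adjusted p = 1.57e-07). Fbn1, fibrillin 1, was at 158, 145 and 166 CPM in the control libraries and 827, 855 and 1060.1 CPM in the knockout libraries, the reverse order (2.55 ± 0.16, adjusted p = 2.98e-09). Thbs1, thrombospondin 1, was at 181, 227 and 266 CPM in the control libraries and 852, 981 and 978 CPM in the knockout libraries (2.06 ± 0.17, adjusted p = 2.62e-08). Col3a1, a fibrillar collagen chain, overlapped (0.04 ± 0.20, adjusted p = 0.889), and its sign turned after length correction (-0.48 ± 0.19).

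Among metalloproteases and their inhibitors, several matrix metalloproteases were lower and 3 ADAMTS proteases higher. Of 20 tested, 8 fell and 4 rose, 6 and 4 in both fits, and without knockout library 1 the count lower was 5. Mmp2, a gelatinase, was at 721, 939.7 and 922 CPM in the control libraries and 309, 345 and 239.6 CPM in the knockout libraries (-1.53 ± 0.13, adjusted p = 2.74e-08), and Mmp13, a collagenase, at 2047, 1983 and 1707 CPM in the control libraries and 615, 1185 and 923 CPM in the knockout libraries (-1.08 ± 0.25, adjusted p = 0.00231). Timp1, a tissue inhibitor, was at 102, 152 and 126 CPM in the control libraries and 21.1, 28.5 and 22.9 CPM in the knockout libraries (-2.39 ± 0.15, adjusted p = 1.22e-09). These 3 were lower in every knockout library. Mmp14, which activates Mmp2, changed by -0.31 ± 0.10 (adjusted p = 0.0194), a call that ended without control library 2, knockout library 1 or knockout library 3 (adjusted p = 0.0607 to 0.0724). Adamts1 rose from 150.2 ± 51.9 to 988 ± 267 CPM (2.72 ± 0.20, adjusted p = 1.75e-08) and Adamts12 from 6.42 ± 1.72 to 47.5 ± 2.80 CPM (2.90 ± 0.21, adjusted p = 9.34e-09). The other 2 risers were Adamts9 (1.49 ± 0.16) and the inhibitor Timp4 (2.37 ± 0.23).

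Contractile genes of the smooth muscle type were lower, and control library 3 was the highest control in several. Of 22 tested, 13 fell and 2 rose, with a median of -1.36. Without control library 3 the count was 11 lower and 2 higher, and the median -0.51. With length correction on the 6 marrow libraries alone 8 were lower. Actg2, smooth muscle gamma actin, was at 28.4, 25.4 and 39.3 CPM in the control libraries and 1.58, 1.68 and 1.41 CPM in the knockout libraries, and control library 3 was near the other controls (-4.30 ± 0.28, adjusted p = 2.70e-09). Cnn1, calponin, was at 5.61, 6.62 and 63.1 CPM in the control libraries and 0.547, 0.560 and 1.31 CPM in the knockout libraries and Tagln, transgelin, at 2.095, 2.52 and 11.998 CPM in the control libraries and 0.740, 0.709 and 1.31 CPM in the knockout libraries. There control library 3 was several times the other controls (-5.003 ± 0.98 and -2.58 ± 0.56), without it the changes were -2.99 and -1.36 (Myl9 -1.26), and with length correction on the 6 libraries alone neither passed (adjusted p = 0.0578 and 0.0800), nor did Myl9 (0.0848). Acta2 changed by -3.96 ± 0.53, Tpm1, a tropomyosin, by -0.86 ± 0.10 and the creatine kinase Ckb by -1.16 ± 0.10. Myh11, smooth muscle myosin, did not pass (-0.997 ± 0.63, adjusted p = 0.216), and without control library 3 it was 0.55, but without control library 1 it was called lower (-1.501, adjusted p = 0.0143). Notch3, a receptor of mural cells, was 1 of the 2 higher members (2.28 ± 0.27), with Cald1, named after its values were seen (0.38 ± 0.11, but -0.25 ± 0.10 after length correction), the other. Serum response factor binds the CArG box, which was found in 2 of 18 contractile genes with a promoter (11.11%) and 439 of 27025 genes (1.62%). Myl9, a myosin light chain chosen after its values were seen, holds it and is shown with the match in capitals. Its level was 318, 345 and 1165 CPM in the control libraries and 116, 122 and 179 CPM in the knockout libraries (-2.13 ± 0.41, adjusted p = 0.000747).
Myl9 (chr2:156775214-156775463, plus strand, match 161 bases before the start): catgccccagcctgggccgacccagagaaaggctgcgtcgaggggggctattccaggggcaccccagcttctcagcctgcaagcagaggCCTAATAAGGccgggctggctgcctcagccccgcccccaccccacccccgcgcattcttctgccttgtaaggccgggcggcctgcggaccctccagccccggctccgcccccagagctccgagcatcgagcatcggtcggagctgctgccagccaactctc

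In BMP and TGF-beta signalling most members rose, while others fell, among them the ligand Tgfb1. Of 31 tested, 19 rose and 7 fell, 18 and 7 in both fits, with a median of 0.71 (0.55 corrected). The ligand Bmp4 was at 418, 189.5 and 239.9 CPM in the control libraries and 571, 469.9 and 805 CPM in the knockout libraries (1.12 ± 0.24, adjusted p = 0.000971). Its antagonist Grem1 was at 37.7, 26.0 and 33.1 CPM in the control libraries and 98.9, 143 and 88.7 CPM in the knockout libraries (1.77 ± 0.17, adjusted p = 1.39e-07). Tgfbr3, a co-receptor for TGF-beta, was at 153, 106 and 156 CPM in the control libraries and 769, 775 and 1121 CPM in the knockout libraries (2.68 ± 0.25, adjusted p = 5.21e-07). Ligand, antagonist and co-receptor all had knockouts above controls. Tgfbr2, the ligand-binding receptor, rose from 78.4 ± 9.85 to 175 ± 15.9 CPM (1.16 ± 0.10, adjusted p = 4.43e-08), while the ligand Tgfb1 fell from 69.7 ± 5.60 to 46.0 ± 3.38 CPM (-0.60 ± 0.12, adjusted p = 0.000511) and the pseudoreceptor Bambi from 231 ± 53.3 to 84.5 ± 8.86 CPM (-1.45 ± 0.15, adjusted p = 5.34e-07). Ltbp1, which stores latent TGF-beta in matrix, rose by 1.11 ± 0.13.

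Frizzled receptors rose and several secreted Wnt inhibitors fell. Of 31 tested, 11 rose and 9 fell, 9 and 8 in both fits. The median was -0.18, or -0.02 with Sost at its bound. The frizzled receptor Fzd1 was at 170.2, 94.5 and 111 CPM in the control libraries and 648, 639 and 1054 CPM in the knockout libraries (2.64 ± 0.22, adjusted p = 8.70e-08), and Fzd4 and Fzd8 rose by 2.11 ± 0.21 and 1.19 ± 0.14. The inhibitor Dkk1 was at 9.50, 17.3 and 12.6 CPM in the control libraries and 1.90, 1.605 and 1.97 CPM in the knockout libraries (-2.84 ± 0.26, adjusted p = 7.88e-08). Sfrp4 was at 738, 929 and 575 CPM in the control libraries and 95.0, 236 and 127 CPM in the knockout libraries (-2.29 ± 0.33, adjusted p = 4.78e-05) and Frzb at 21.2, 30.9 and 22.9 CPM in the control libraries and 7.05, 6.08 and 4.13 CPM in the knockout libraries (-2.09 ± 0.17, adjusted p = 2.67e-08), both decoys for Wnt ligands. Receptors and inhibitors thus had opposite orders between the groups. Axin2, a target of Wnt signalling, was at 0.486, 1.03 and 0.714 CPM in the control libraries and 1.51, 0.784 and 0.704 CPM in the knockout libraries and did not pass (0.50 ± 0.56, adjusted p = 0.484). Sost, sclerostin of osteocytes, was at most 0.0476 CPM in any of the 6 libraries.

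Notch receptors and the ligand Jag1 rose, whereas target genes were mixed. Of 17 tested, 8 rose and 2 fell, 7 and 2 in both fits. Notch1 was at 5.50, 4.66 and 4.09 CPM in the control libraries and 19.8, 20.4 and 35.2 CPM in the knockout libraries (2.38 ± 0.27, adjusted p = 1.20e-06), and Notch2 and Notch3 rose by 1.76 ± 0.28 and 2.28 ± 0.27. Jag1 was at 18.3, 15.4 and 22.1 CPM in the control libraries and 82.7, 67.6 and 122 CPM in the knockout libraries (2.28 ± 0.29, adjusted p = 6.01e-06). Lfng, which glycosylates the receptors, rose from 30.1 ± 14.1 to 76.4 ± 16.6 CPM (1.33 ± 0.26, adjusted p = 0.000511). Hes1, a target gene, rose by 0.57 ± 0.18 (adjusted p = 0.0130), a call lost without control library 3 or knockout library 2 (adjusted p = 0.0581 and 0.0565). Nrarp, another target, was at 3.48, 5.51 and 14.4 CPM in the control libraries and 1.16, 1.64 and 1.83 CPM in the knockout libraries, lower in knockouts (-2.32 ± 0.42, adjusted p = 0.000102), and the other lower member was the target Hey2 (-1.64 ± 0.34), named after its values were seen.

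In the IGF system, several binding proteins and proteases of binding proteins changed, in both directions. Of 17 tested, 6 rose and 3 fell as fitted, a share near the 47.9% called over all genes, and 4 and 3 held in both fits. Igfbp3, a carrier of IGFs, was at 371, 334 and 161 CPM in the control libraries and 1452, 2734 and 2243 CPM in the knockout libraries (2.89 ± 0.35, adjusted p = 1.15e-05), and Igfbp5 at 1415, 1501 and 1095 CPM in the control libraries and 2116, 3425 and 2548 CPM in the knockout libraries (1.01 ± 0.17, adjusted p = 9.24e-05). Pappa, a protease of binding proteins, was at 52.6, 53.3 and 44.9 CPM in the control libraries and 147, 171 and 190.3 CPM in the knockout libraries (1.75 ± 0.15, adjusted p = 4.04e-08). Its relative Pappa2 rose from a level near the floor, from 0.256 ± 0.144 to 3.44 ± 1.90 CPM (3.68 ± 0.61, adjusted p = 7.23e-05), and the serine protease Htra1 fell from 441 ± 31.9 to 171 ± 26.4 CPM (-1.37 ± 0.11, adjusted p = 2.80e-08). Igf1 did not pass as fitted (-0.25 ± 0.15, adjusted p = 0.179) but was lower after length correction (-0.78 ± 0.15, adjusted p = 0.000432) and without knockout library 3 (-0.44, adjusted p = 0.0185). Igf2 (0.46 ± 0.84) and Igfbp4 (-0.10 ± 0.16) did not pass. Complement genes gave 2 higher and 3 lower of 17, and 1 of each held in both fits. C3, the central component, rose from 12.6 ± 1.74 to 27.0 ± 8.21 CPM (1.12 ± 0.25, adjusted p = 0.00113). The other calls, C4b (0.995 ± 0.35), C2 (-0.91 ± 0.31), Serping1 (-0.54 ± 0.16) and Cd59a (-0.54 ± 0.20), ended under several settings, and without knockout library 1 no complement gene was called lower.

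Genes of protein synthesis, respiration and cell division were lower. All 38 cytosolic ribosomal protein genes tested fell, 32 of them also after length correction, with the median going from -0.75 to -0.43. With length correction on the 6 marrow libraries alone, 25 were lower. Rps2 was at 107, 122 and 105 CPM in the control libraries and 51.8, 52.6 and 60.8 CPM in the knockout libraries (-1.01 ± 0.10, adjusted p = 3.00e-07), and Rpl7 at 119.6, 142 and 130.4 CPM in the control libraries and 71.9, 67.8 and 72.9 CPM in the knockout libraries (-0.88 ± 0.09, adjusted p = 4.40e-07). Many processed copies of these genes exist in the genome, so their counts are uncertain. Of 28 respiratory chain subunits 26 fell, 22 in both fits, with a median of -0.67 (-0.40 corrected), and 16 with length correction on the 6 libraries alone. Cox6a1, a subunit of cytochrome oxidase, was at 175, 208 and 205 CPM in the control libraries and 93.2, 84.9 and 115 CPM in the knockout libraries (-1.01 ± 0.12, adjusted p = 1.21e-06), and Sdha, of succinate dehydrogenase, did not pass (0.01 ± 0.08, adjusted p = 0.902). Both lists hold short genes (median 1918.5 and 2139.5 bases). Of 31 replication and mitosis genes 22 fell and 1 rose, the inhibitor Cdkn1a (0.62 ± 0.18, named after its values were seen and not called with the 6 marrow libraries alone, adjusted p = 0.0879, or without control library 1 or knockout library 1 or 2, 0.0512 to 0.0603). The median was -0.73 (-0.70 corrected). Cdk1, which drives mitosis, was at 18.4, 16.8 and 13.1 CPM in the control libraries and 7.82, 7.28 and 4.08 CPM in the knockout libraries (-1.31 ± 0.19, adjusted p = 1.62e-05), and Ccna2, cyclin A2, at 24.2, 21.8 and 19.0 CPM in the control libraries and 10.9, 7.91 and 6.06 CPM in the knockout libraries (-1.37 ± 0.20, adjusted p = 1.90e-05). Mki67 did not pass (1.61 ± 0.70, adjusted p = 0.0681) but was called higher without control library 3 or knockout library 3 (2.735 and 1.94, adjusted p = 0.0155 and 0.0284).

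The list of ER stress genes and targets of ATF4, a factor that induces amino acid enzymes, had more calls lower than higher. Of 24 genes tested 9 fell and 2 rose, Sesn2 (0.89 ± 0.14) and Ppp1r15a (1.38 ± 0.40), named after their values were seen, and 8 and 2 held in both fits, while 13 did not pass. The share called was near the 47.9% of all genes. The list median was -0.17, and 0.05 after length correction. The call of Ppp1r15a ended with the 6 marrow libraries alone and without control library 2 or knockout library 2 (adjusted p = 0.104, 0.0507 and 0.0528). Asns, asparagine synthetase, was at 31.2, 29.0 and 24.0 CPM in the control libraries and 11.4, 12.7 and 9.48 CPM in the knockout libraries (-1.32 ± 0.19, adjusted p = 1.36e-05). Psat1, of serine synthesis, was at 43.9, 65.7 and 38.5 CPM in the control libraries and 18.4, 17.5 and 18.4 CPM in the knockout libraries (-1.45 ± 0.21, adjusted p = 1.97e-05). Knockouts were lower in both. Creb3l1, a membrane-bound factor that drives collagen secretion, fell from 360.4 ± 51.2 to 156 ± 10.2 CPM (-1.21 ± 0.12, adjusted p = 2.19e-07), and the chaperone Hspa5 did not pass (-0.09 ± 0.13, adjusted p = 0.565).

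The hypoxia and glycolysis list moved both ways, with 10 of 29 higher and 12 lower, 7 and 10 in both fits. Without knockout library 2 the counts were 7 higher and 12 lower, and without control library 3 they were 8 and 11. Epas1, hypoxia-inducible factor 2 alpha, was at 82.6, 89.4 and 86.8 CPM in the control libraries and 441, 578 and 507 CPM in the knockout libraries (2.56 ± 0.15, adjusted p = 9.34e-10), whereas Hif1a did not pass (0.17 ± 0.09, adjusted p = 0.117) except without knockout library 3 (adjusted p = 0.0429). Pkm, pyruvate kinase, was at 250.1, 298 and 277 CPM in the control libraries and 113, 129.9 and 120.1 CPM in the knockout libraries (-1.18 ± 0.10, adjusted p = 2.94e-08), and Ndufa4l2, a mitochondrial protein induced by hypoxia, at 40.3, 57.1 and 69.5 CPM in the control libraries and 10.6, 9.37 and 10.05 CPM in the knockout libraries (-2.47 ± 0.19, adjusted p = 2.13e-08). Adm, adrenomedullin, was at 6.14, 6.71 and 6.90 CPM in the control libraries and 31.4, 28.6 and 20.04 CPM in the knockout libraries (2.03 ± 0.20, adjusted p = 2.53e-07). Pkm and Ndufa4l2 were lower, and Adm and Epas1 higher, in all 3 knockout libraries.

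Among single genes with a mean of at least 5 CPM, no overlap and the same call in both fits, the 15 largest rises ran from 3.44 (Cttnbp2) to 6.59 (AI506816). AI506816, an RNA annotated as a processed transcript, was at 0.224, 0.427 and 0.333 CPM in the control libraries and 33.1, 29.9 and 32.1 CPM in the knockout libraries (6.59 ± 0.18, adjusted p = 7.72e-15). Ablim1, an actin-binding protein, was at 0.898, 1.496 and 2.43 CPM in the control libraries and 26.8, 21.1 and 42.2 CPM in the knockout libraries (4.25 ± 0.53, adjusted p = 7.00e-06), and Cavin2, of caveolae, at 21.3, 12.1 and 17.1 CPM in the control libraries and 179, 201 and 227 CPM in the knockout libraries (3.58 ± 0.35, adjusted p = 1.01e-06). Tshr, the thyrotropin receptor, was at 0.823, 1.197 and 1.48 CPM in the control libraries and 15.6, 13.4 and 12.6 CPM in the knockout libraries (3.60 ± 0.29, adjusted p = 1.33e-08), and Siglec1, a sialic acid receptor of macrophages, at 0.861, 0.641 and 0.333 CPM in the control libraries and 9.72, 3.70 and 9.20 CPM in the knockout libraries (3.57 ± 0.55, adjusted p = 1.41e-05). Siglec1 rose while the summed macrophage markers of the groups overlapped. Itga2b meets the rule, at 5.34 ± 1.48 with almost all of its signal in knockout library 2, and its call ended with the 6 marrow libraries alone (adjusted p = 0.112). Kcnt1, a potassium channel, Six2, a homeobox factor, and Zdhhc23, a palmitoyl transferase, rose by 3.64 ± 0.51, 3.59 ± 0.42 and 5.42 ± 0.52.

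The 15 largest falls ran from -3.27 (Stbd1) to -5.003 (Cnn1). Several were highest in control library 3, namely Map3k7cl (7.45, 10.1 and 34.2 CPM in controls), Cap2 (1.83, 2.31 and 15.7), Ppp1r14a (5.20, 7.78 and 25.9), Fam81a (1.91, 3.29 and 12.3), Perp (2.54, 2.78 and 18.5) and Tcf15 (1.91, 1.88 and 16.1), the order seen in Acta2 and Cnn1. Without control library 3 the changes of these 6 were -3.13 to -1.55 and that of Cnn1 -2.99, all called but all smaller than the -3.27 that Stbd1 had as fitted. The changes of Cnn1, Cap2, Perp and Tcf15 moved by over 1.5 times (Cap2 -2.08, Perp -1.82). Slc9a2, a sodium-proton exchanger, was at 28.7, 50.01 and 35.6 CPM in the control libraries and 3.15, 2.24 and 1.27 CPM in the knockout libraries (-4.04 ± 0.37, adjusted p = 2.25e-07). Stbd1, a glycogen-binding protein, was at 9.69, 12.8 and 22.8 CPM in the control libraries and 1.80, 0.821 and 2.07 CPM in the knockout libraries (-3.27 ± 0.39, adjusted p = 2.31e-06). H2-Ab1, a class II chain of antigen presentation, was at 13.1, 21.9 and 5.81 CPM in the control libraries and 0.772, 2.16 and 0.939 CPM in the knockout libraries (-3.40 ± 0.45, adjusted p = 1.22e-05). Cd74, the invariant chain, was at 12.6, 28.3 and 3.19 CPM in the control libraries and 0.740, 1.23 and 1.27 CPM in the knockout libraries (-3.80 ± 1.17, adjusted p = 0.0166), and its call ended without control library 2 or knockout library 1 (adjusted p = 0.0822 and 0.0617). The B cell and T cell marker sums were also lower in all knockout libraries, and their part in these falls was not tested. Gbp4, an interferon-induced GTPase, was at 3.22, 21.8 and 2.86 CPM in the control libraries and 0, 1.05 and 0 CPM in the knockout libraries (-4.69, but -3.09 without control library 2, and without knockout library 2 the other knockout libraries were at 0), and Slc7a11, the cystine transporter, at 13.2, 12.4 and 0.476 CPM in the control libraries and 0.386, 0.299 and 0.188 CPM in the knockout libraries. With the 6 marrow libraries alone the calls of Gbp4 and Tcf15 ended (adjusted p = 0.0518 and 0.0636). The fall of Slc7a11 (-4.85 ± 1.77, adjusted p = 0.0373) did not pass when a library other than control library 3 was left out (adjusted p = 0.0892 to 0.105), nor with no filter on low counts (adjusted p = 0.0842).

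The knockout effect in marrow was then compared with that in GFP-negative bone cells, as the difference of the 2 fold changes in 1 fit. It was higher in marrow for 513 genes (3.31%) and lower for 696 (4.49%), 7.79% in all. These counts depend on the scale. With library totals alone they were 3327 and 408, and the median gene moved from 0.04 to 0.42, so differences are best read relative to that shift. Of the 69 genes named here whose effect differed, 54 kept both direction and call on that scale and 15 kept the direction only. With no filter on low counts 57 kept direction and call, and 12 the direction only.

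Fat storage genes were raised in marrow more than in bone. Of 20 lipid droplet genes 8 had a higher effect in marrow and none a lower one, and the list median was 0.95 in marrow and 0.0 in bone. Fitm2 changed by 1.70 in marrow and -0.21 in bone (difference 1.90 ± 0.21, adjusted p = 1.97e-05). Acsl1 changed by 3.23 and 0.47 (difference 2.76 ± 0.28, adjusted p = 1.31e-05), and Scd1 by 2.77 and -0.41 (difference 3.18 ± 0.37, adjusted p = 9.45e-05). In the glucocorticoid list 4 of 23 members had a higher and 1 a lower effect in marrow, and its medians were 1.57 and 1.05. For adipogenic factors 3 of 21 were higher. For reticular stroma genes 8 of 25 had a lower effect in marrow and none a higher one, with medians of 0.59 in marrow and 1.04 in bone. Of 18 blood stem cell niche factors 4 had a lower and 1 a higher effect in marrow, with medians of 0.51 and 0.85.

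Bone matrix genes had a lower effect in marrow for 21 of 30 tested and a higher one for none. The list median was -1.03 there and 0.41 in bone. Bglap changed by -2.71 in marrow and -0.22 in bone (difference -2.49 ± 0.38, adjusted p = 0.000694), and Col1a1 by -1.26 and 0.66 (difference -1.92 ± 0.29, adjusted p = 0.000361). Sparc, at -1.44 and -0.01, and Alpl, at -1.43 and -0.24, gave differences of -1.43 ± 0.21 and -1.19 ± 0.16. Fibroblast matrix genes had 13 lower and 3 higher of 31. Collagen processing enzymes had 7 lower and 2 higher of 25, with P4ha2 at -1.77 and -1.603 (difference -0.17 ± 0.14, adjusted p = 0.537).

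In the hypoxia and glycolysis list, 12 of 29 genes had a higher effect in marrow and 1 a lower one. Bnip3, a mitophagy receptor induced by hypoxia, was at 29.3, 27.0 and 23.2 CPM in the control libraries and 32.3, 43.4 and 33.4 CPM in the knockout libraries in marrow. It rose there (0.46 ± 0.14, a call lost without control library 3 or knockout library 2) and changed by -1.88 ± 0.14 in bone (difference 2.34 ± 0.19, adjusted p = 3.76e-06). Aldoa, aldolase, changed by 0.64 and -0.81 (difference 1.45 ± 0.12, adjusted p = 3.76e-06), and Adm by 2.03 and -0.57 (difference 2.59 ± 0.28, adjusted p = 1.97e-05). Pth1r itself changed by -0.70 in marrow and -0.56 in bone, and the difference did not pass (-0.14 ± 0.18, adjusted p = 0.723).

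**Figure D5:**
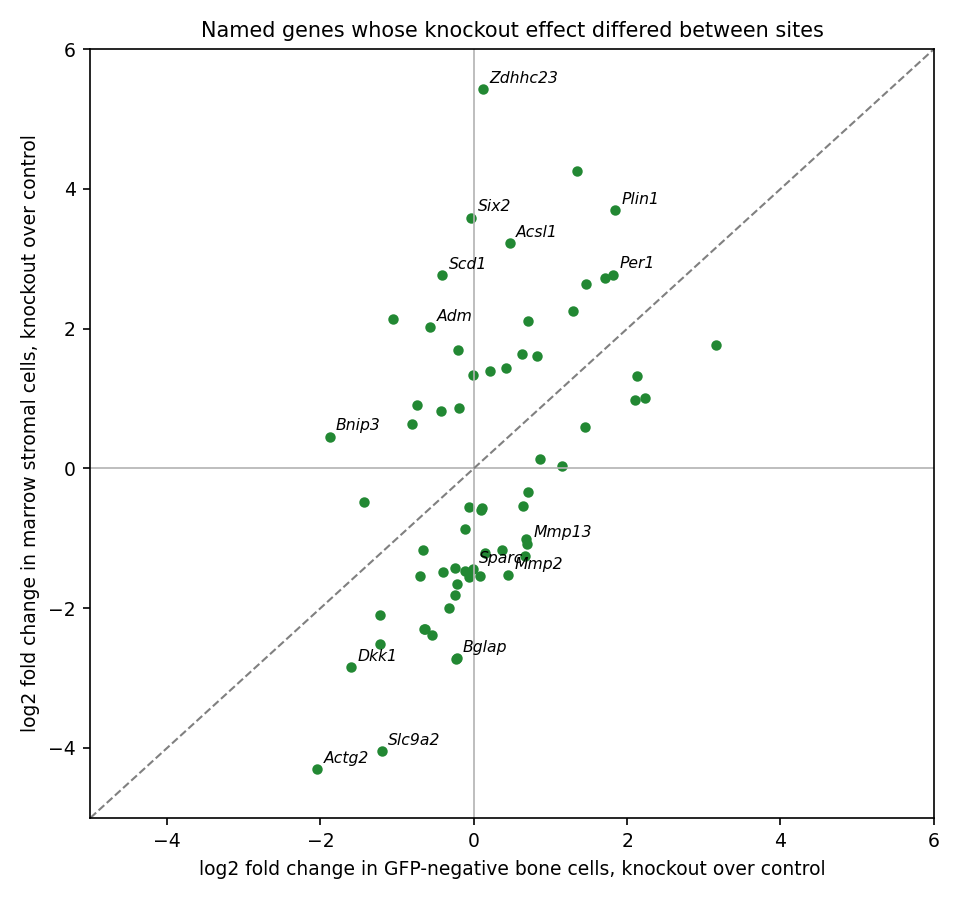
Log2 fold change of knockout over control in marrow stromal cells (vertical axis) against that in GFP-negative bone cells (horizontal axis) for the reported genes of the naming rule whose 2 effects differed at an adjusted p under 0.05, 1 dot a gene, with the dashed line where both are equal. Plin1, Acsl1, Scd1 and Adm lie above the line, and Bglap, Sparc and Dkk1 below it.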

How the data were processed

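Per the labels' protocols, RNA came from sorted cells by a Qiagen micro-scale column kit (RNeasy Plus), and cDNA and libraries were made with Takara's SMART-Seq v4 and ThruPLEX chemistry for small inputs. STAR, featureCounts and DESeq2 stand in the submitters' processing notes with the build mm10, without versions. The deposited files hold raw counts per gene from the authors, with coordinates, strand and merged exon length per the file headers. Whether counting used strand is not stated, so genes that overlap or lie antisense cannot be told apart, and near-identical copies are uncertain.

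All 18 libraries were fitted together with 6 group means (12 residual degrees of freedom) by edgeR 4.0.16 (quasi-likelihood test, robust, TMM; R 4.3.3), after a filter on low counts (minimum count 10, minimum total 15) that left 15516 genes. SE is the fold change over the root of F. P-values are Benjamini-Hochberg adjusted over all genes tested, with a threshold of 0.05. Each marrow p compares 3 against 3 libraries, with a spread estimated over all 18, bone libraries included. With the 6 marrow libraries alone, 14 named genes lost the call. The labels do not say how many animals gave the libraries, so p-values measure only the spread between libraries, part of which may be technical. Library 3 of each group differed from libraries 1 and 2 in Y-linked genes and Xist, so it came from other animals than they did. No 2 libraries of a group agreed within sampling noise. Length correction subtracts, per library, a lowess curve (span 0.3) of its deviation from the subset mean over log2 length, used as an offset. On simulated counts for these libraries, the script recovered 85 to 87% of genes changed 2-fold and 100% of those changed 4-fold. Few genes were changed there, all well counted, and every gene had the same spread. The real data differ, with 47.9% of genes called and single libraries that stand apart. The recovery therefore does not bear on false calls here.

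Named genes are Pth1r, marked members of each list, up to 4 other members with the smallest p, the 15 largest rises and 15 largest falls (adjusted p under 0.05 in both fits, at least 5 CPM in the higher group, no overlap, no clone names) and the 6 genes with the smallest p of the difference from bone. The libraries and gene lists were chosen with earlier results of these data known. A few genes that the rule names are not reported here. Promoters came from RefSeq, and genes on chromosome 18 were left out of all motif counts, of listed members and of all genes alike. Alternatives were DESeq2 1.42.0, its size factors, library totals alone, no filter, a replicate block, the 6 marrow libraries alone, length correction and leaving out each library. Figures were drawn with matplotlib 3.10.9.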

Additional observations from a re-analysis of the deposited data

Results flagged for a closer look

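The knockout effect in marrow differed from that in GFP-negative bone cells for 69 of the genes named here, by the edgeR interaction test with an adjusted p under 0.05. Over all genes tested the share was 7.79%. The named genes were picked partly by a small p or a large change, 6 of them by the smallest p of this difference. The count of 69 is therefore not to be read against that share. Each value below is the marrow effect minus the bone effect on the log2 scale, from 3 against 3 libraries at each site. With no filter on low counts 12 of these lost the call, namely Ablim1, Acly, Adamts1, Col3a1, Cxcl12, Dusp1, Fzd1, Ibsp, Junb, Nr1d1, Sfrp4 and Zfp423 (adjusted p = 0.0667 to 0.168). Acly, Nr1d1 and Zfp423 also lost it with DESeq2 size factors (0.0583 to 0.0998), and Zfp423 with DESeq2 (0.0625). With library totals alone 15 lost it, all of them with a lower effect in marrow. They were Ckb, Sp7, Runx2, Tgfb1, Cxcl12, Phex, Pdgfra, Tpm1, Sqle, Frzb, Col3a1, Dkk1, Cbln1, Sfrp4 and C1s1 (adjusted p = 0.0551 to 0.588). No explanation of these differences was tested.

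Among genes of lipid storage, uptake and synthesis, the effect was higher in marrow for Plin1 (1.85), Plin2 (1.06), Dgat2 (1.40), Fitm2 (1.90), Acsl1 (2.76), Scd1 (3.18), Acly (0.41), Sc5d (1.65) and Arxes2 (3.19). It was lower there for the sterol enzyme Sqle (-0.83). Hormone signalling and adipogenic genes had higher values in Irs2 (0.95), Zfp423 (0.78) and Cebpd (1.01).

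Bone matrix genes with a lower effect in marrow were Bglap (-2.49), Bglap2 (-2.50), Col1a1 (-1.92), Col5a1 (-1.23), Ibsp (-1.54), Alpl (-1.19), Sparc (-1.43), Omd (-1.35), Cthrc1 (-1.29), Ifitm5 (-1.58) and Phex (-0.81). Of these, Col5a1 and Phex themselves rose in knockout marrow as fitted. Other matrix, collagen and protease genes were Col3a1 (-1.12), Dcn (-1.68), Lum (-1.67), Postn (-1.62), Fbln1 (-1.43), Pcolce (-1.08), Timp1 (-1.84), Mmp2 (-1.98), Mmp13 (-1.77) and Itgb5 (-1.69) on the lower side and P3h2 (2.18) and Adamts1 (1.01) on the higher side. Osteoblast factors gave Runx2 (-0.73), Sp7 (-0.68), Dlx3 (-1.49), Junb (1.35) and Creb3l1 (-1.35).

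Contractile genes with a lower effect in marrow were Actg2 (-2.26), Tpm1 (-0.75) and Ckb (-0.50). Reticular and niche genes gave Cxcl12 (-0.87), Pdgfra (-0.80), Grem1 (-1.39), Cbln1 (-1.11) and Vegfa (1.0). Wnt, TGF-beta and IGF genes gave Dkk1 (-1.24), Sfrp4 (-1.65), Frzb (-0.87), Fzd1 (1.17), Tgfb1 (-0.69), Tgfbi (1.25) and Igfbp5 (-1.22), and complement genes Cd59a (-1.18) and C1s1 (-1.04).

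Hormone-responsive and clock genes with a higher effect in marrow were Per1 (0.95), Nr1d1 (1.17) and Dusp1 (1.23). Hypoxia and glycolysis genes with a higher effect there were Bnip3 (2.34), Aldoa (1.45), Ldha (0.95) and Adm (2.59). Of the genes with the largest changes, Zdhhc23 (5.30), Ablim1 (2.91) and Six2 (3.62) had a higher effect in marrow and Slc9a2 (-2.84) a lower one.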

How the results depend on the processing

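The counts of genes higher and lower in knockout marrow cells (3581 and 3844) stayed within 1.5 times under every alternative run, and Pth1r stayed lower and called in each, from -0.77 to -0.65 when a library was left out. Of 252 named genes, 226 kept direction and call under length correction, 237 with library totals alone, 240 with no filter, 245 of those DESeq2 tested, 236 of those tested in the 6 marrow libraries alone and 212 there with length correction, where 25 lost the call and 8 turned sign. Of 69 differences from bone, 57 kept the call with no filter. Genes with an effect higher in marrow than in bone numbered 3327 with library totals alone and 304 with no filter (513 as fitted), and lower ones 408 with library totals alone and 1113 with DESeq2 (696 as fitted). With DESeq2 size factors 365 were higher and 880 lower. The cause was not tested.

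The length correlation (0.366) was 0.020 after length correction, with or without the replicate block, 0.134 with no filter, 0.143 with DESeq2, 0.4 in the 6 marrow libraries alone, 0.003 there after length correction, and 0.329 to 0.364 when a library was left out. With length correction in the 6 libraries alone, 8 contractile, 25 ribosomal and 16 respiratory genes were lower. Lower metalloproteases (8) numbered 4 with library totals alone, 5 with no filter, 4 in the 6 libraries alone and 5 to 6 when a library was left out. Lower complement genes (3) numbered 1 with library totals alone, with no filter and in both fits of the 6 libraries alone, and 0 to 4 when a library was left out.

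Genes whose sign turned did so mostly under length correction, alone, with the block, and in the 6 libraries alone: Runx2 -0.332, -0.328 and -0.287, Col3a1 -0.476, -0.484 and -0.436, Arntl -0.118, -0.186 and -0.087, Col2a1 -0.121, -0.128 and -0.076, Cald1 -0.253, -0.251 and -0.217, and Dlx5 0.272, 0.268 and 0.345. Hif1a was -0.014 and -0.013 in the first pair of these, and Acadvl 0.019 and Hilpda 0.025 in the last. Dlx5 was also 0.109 with library totals alone, 0.016 with no filter and 0.015 in the 6 libraries alone. With library totals alone Igfbp4 was 0.038, Hspa5 0.035 and Top2a 0.058. Over the fits that leave out a library, values ran as follows: Tnfsf11 -0.009 to 0.372, Dlx5 -0.082 to 0.045, Atf4 -0.017 to 0.232, Myh11 -1.501 to 0.552, Col3a1 -0.140 to 0.340, Arntl -0.324 to 0.518, Igf2 -1.021 to 0.979, Igfbp4 -0.241 to 0.064, Hspa5 -0.231 to 0.065, Top2a -0.192 to 0.050, Sdha -0.040 to 0.045 and Pf4 -1.871 to 3.562.

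With the replicate number as a block, 3662 genes were higher and 3931 lower in marrow, and 546 and 759 differed from bone. The block ended the calls of Il7 and Slc7a11 (adjusted p = 0.0563 and 0.05) and gave calls to Gnas (-0.302, 0.0221) and Ndufs1 (-0.234, 0.0438), and the differences from bone of Ckb and Zfp423 were not called (0.0505 and 0.0522). Deviations of same-numbered control and knockout libraries correlated at 0.0151, 0.0831 and 0.059, none above 0.1, so the numbers were not taken to pair libraries. Every library correlated best with its own number except control library 1. The block with length correction gave 3157 and 3555. Depth limits genes near the floor, where a fall to 0 counts is a bound only.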
